A study of Mus musculus with 6 samples.

Results

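A set of 7 genes that write, maintain or erase cytosine methylation of DNA was followed in hematopoietic stem cells (HSCs) of the mouse fetal liver with and without Dpy30. The 7 genes were taken by exact symbol and by function, not by any measured value: the writers and maintenance genes Dnmt1, Uhrf1, Dnmt3a and Dnmt3b, and the erasers Tet1, Tet2 and Tet3. All 7 were among the 38926 gene symbols in the count lists, and all 7 were among the 13646 genes that passed the filter on low counts and were tested.

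Dnmt1 copies methylation onto the new strand after DNA replication, and Uhrf1 brings it to hemimethylated CpG. Dnmt3a and Dnmt3b set methylation at unmethylated sites, and their ADD domain binds histone H3 tails that carry no methyl group on lysine 4. The TET enzymes oxidise 5-methylcytosine on the way to its removal, and loss of Dnmt3a or of Tet2 is known to extend the self-renewal of adult HSCs. The Dpy30 protein belongs to the shared core of SET1/MLL enzyme complexes that methylate histone H3 at lysine 4, mostly at CpG-rich promoters. The comparison asks whether transcripts of the DNA methylation enzymes depended on Dpy30.

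The samples were HSCs sorted by surface markers from E14.5 embryos, with 3 control and 3 knockout libraries. Controls were Vav-Cre; Dpy30F/+ and knockouts were Vav-Cre; Dpy30F/-, so both carried the Cre transgene and 1 floxed allele, and the control was heterozygous wherever Cre had acted. Vav-Cre is active in blood-forming cells. Each of 3 litters gave 1 library of each genotype, and libraries are numbered here by litter. The labels do not say whether a library came from 1 embryo or from several, so the p-values measure the spread between these libraries.

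Gene counts per library ranged from 31897737 to 43394700. Fewer genes had any count in knockout 2 (14674) and knockout 3 (13972) than in the other libraries (16149 to 17241). Counts of Dpy30 were 712, 904 and 1395 for controls 1, 2 and 3 against 315, 216 and 478 for knockouts 1, 2 and 3. In CPM (gene counts per 1000000 counts of the library) the means were 26.8 ± 4.196 for controls and 9.18 ± 3.999 for knockouts, with every knockout below every control (edgeR adjusted p = 0.672). Here and below, ± is the SD over n = 3 libraries. CPM here are scaled by the trimmed mean of M values (TMM). Of 15 HSC markers, 12 had their lowest level in knockout 3. The 15 summed to 374 CPM there against 830 to 1094 CPM in the other 5 libraries. For this and every other count of genes lowest in a given library, the share over all tested genes was not counted. The 12 include Cd48, a gene whose absence marks HSCs, which had 0 counts in knockout 3 and at most 4.33 CPM elsewhere. In knockout 3, Slamf1 (CD150) was at 0.514 CPM against 6.59 to 15.6, Mecom at 11.6 against 70.2 to 147, and Hlf at 27.2 against 146 to 230 CPM. Gata2 of the same list went the other way, at 45.3 CPM in knockout 3, above every control. Ly6a (Sca-1) was low in every library, at 0 to 7.44 CPM, with 0 counts in control 3, which allows a level of up to 0.0680 CPM. Transcripts of liver endothelial cells were abundant in 5 of the 6 libraries. The 15 endothelial markers, a list drawn up after the values were seen, summed to 2207 to 3642 CPM in those 5 and to 231 CPM in knockout 2, which was lowest for 13 of them. Knockouts 2 and 3 stand apart, each in a different set of marker genes, and member values are given with and without them.

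The window from 250 bases before to 50 bases after the RefSeq start was read for each member in GRCm38.p6. The GENCODE gene of Tet1 begins upstream of its RefSeq start. All 7 members matched, some with several starts. Windows in the table held a median of 7 CpG dinucleotides over 32851 windows, which includes alternative starts. Promoters were read because SET1/MLL complexes mostly act at CpG-rich ones. The 3 members shown are those whose levels moved most in a single library, a choice made by their values. Capitals mark CpG.
Tet1 promoter: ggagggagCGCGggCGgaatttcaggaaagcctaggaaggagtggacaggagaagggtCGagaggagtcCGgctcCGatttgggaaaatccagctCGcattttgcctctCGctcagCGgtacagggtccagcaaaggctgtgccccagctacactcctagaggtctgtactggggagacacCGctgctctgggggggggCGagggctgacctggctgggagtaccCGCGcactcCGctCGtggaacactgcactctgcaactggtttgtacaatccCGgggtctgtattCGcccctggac
Dnmt3b promoter: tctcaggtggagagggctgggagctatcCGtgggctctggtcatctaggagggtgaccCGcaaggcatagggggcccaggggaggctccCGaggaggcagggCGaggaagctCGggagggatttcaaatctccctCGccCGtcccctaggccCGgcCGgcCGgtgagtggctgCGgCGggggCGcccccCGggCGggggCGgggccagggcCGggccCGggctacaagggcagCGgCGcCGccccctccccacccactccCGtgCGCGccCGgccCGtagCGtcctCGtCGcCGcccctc
Tet2 promoter: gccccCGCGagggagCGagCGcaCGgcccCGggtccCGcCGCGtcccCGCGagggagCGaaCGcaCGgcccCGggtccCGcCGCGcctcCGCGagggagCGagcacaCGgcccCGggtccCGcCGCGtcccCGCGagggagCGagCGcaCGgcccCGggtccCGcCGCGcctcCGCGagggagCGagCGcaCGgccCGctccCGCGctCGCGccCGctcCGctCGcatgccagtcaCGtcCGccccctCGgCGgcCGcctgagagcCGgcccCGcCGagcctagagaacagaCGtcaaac

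The Tet1 window (chr10:62887275-62887574, minus strand) held 17 CpG, more than 68.6% of all windows. The Dnmt3b window (chr2:153649199-153649498, plus strand) held 30 CpG and the Tet2 window (chr3:133544341-133544640, minus strand) held 57 CpG, more than 88.3% and 99.8% of windows. Of the members not shown, Dnmt1 had 2 to 33 CpG over its starts, Uhrf1 12 and 33, Dnmt3a 18 to 47 and Tet3 22. These counts describe the sequence. No histone or methylation signal was measured at them here.

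No member passed the test between genotypes. In edgeR's quasi-likelihood test, 0 of the 7 had an adjusted p under 0.05, as did 0% of the 13646 tested genes. None had an unadjusted p under 0.05, against 6.51% of all tested genes. DESeq2 called 0 of the 7 and 1.02% of all genes. The genotypes overlapped for all 7 members, and 14.1% of tested genes had genotypes that did not overlap. With only 7 members, counts of 0 do not set them apart from these shares. The median log2 fold change (knockout over control) was -0.06 over the members and 0.01 over all genes tested.

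**Figure D1:**
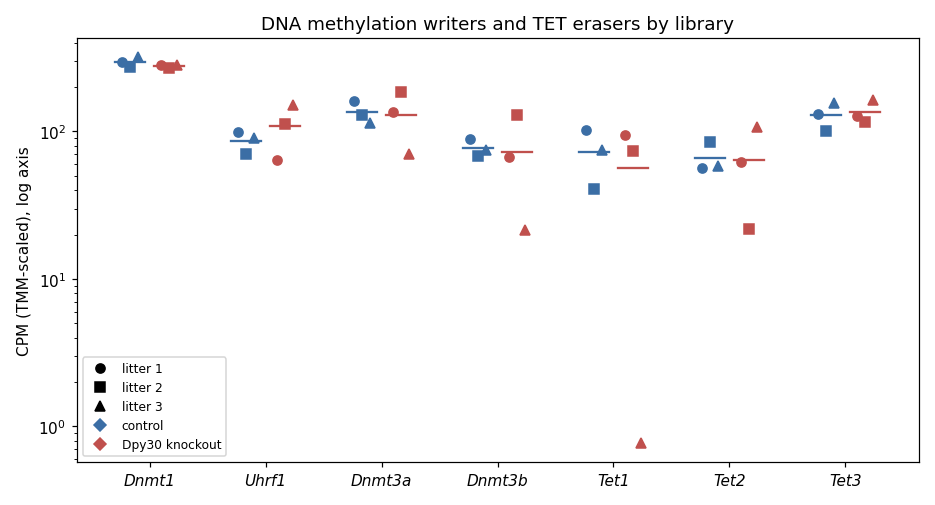
CPM (log axis) of each member in the 6 libraries, with blue for control, red for knockout, marker shape for litter and bars for group means. Dnmt1 lies between 269 and 318 CPM throughout, whereas Tet1 in knockout 3 is at 0.771 CPM.

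The maintenance pair comes first. Dnmt1 (ENSMUSG00000004099.16, GRCm38 chromosome 9, 20907209 to 20959888, minus strand) had 293, 272 and 318 CPM in controls 1 to 3 and 281, 269 and 280 CPM in knockouts 1 to 3. It was the steadiest member, with the highest library only 1.18 times the lowest. Only 0.388% of tested genes had a smaller SD of log2 CPM among the knockouts. Its log2 fold change was -0.09 (SE 0.18, 95% interval -0.50 to 0.32; edgeR adjusted p = 0.963). On the linear scale the interval runs from 0.706 to 1.25 of the control level. Dnmt1 was the only member with 1 direction in all 3 litters, at -0.06, -0.02 and -0.19 on the log2 scale.

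Uhrf1 (ENSMUSG00000001228.14, chromosome 17, 56303321 to 56323486, plus strand) encodes the reader of hemimethylated CpG. Its levels were 98.9, 70.5 and 89.9 CPM in controls 1 to 3 and 63.7, 112 and 150 CPM in knockouts 1 to 3. Knockout 1 was the lowest of the 6 libraries, and knockouts 2 and 3 were above every control. The log2 fold change was 0.33 (SE 0.33, 95% interval -0.44 to 1.10; edgeR adjusted p = 0.906), and it was 0.03 without knockout 3. Without knockout 1 it was 0.60 (edgeR adjusted p = 0.412, the lowest of its alternatives, which reached 0.99994). Uhrf1 and Dnmt1 act together at replication forks, and Pearson's r of their log2 CPM over the 6 libraries was -0.03.

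Among the de novo enzymes, Dnmt3a (ENSMUSG00000020661.15, chromosome 12, 3806007 to 3914443, plus strand) had 161, 130 and 114 CPM in controls 1 to 3 and 135, 184 and 70.03 CPM in knockouts 1 to 3. The highest and the lowest value were both knockouts. The log2 fold change was -0.06 (SE 0.35, 95% interval -0.87 to 0.75; edgeR adjusted p = 0.990). It was 0.25 without knockout 3 and -0.40 without knockout 2, so its sign changed when a single library was left out.

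Dnmt3b (ENSMUSG00000027478.15, chromosome 2, 153649450 to 153687730, plus strand) likewise had its highest level in knockout 2 and its lowest in knockout 3, with a wider range. Controls 1 to 3 had 88.8, 68.4 and 74.8 CPM, and knockouts 1 to 3 had 67.5, 130 and 21.5 CPM. The knockouts held both the lowest and the highest value, 6.04 times apart, with all controls between them. The log2 fold change was -0.09 (SE 0.55, 95% interval -1.34 to 1.17; edgeR adjusted p = 0.990), with 0.36 without knockout 3 and -0.80 without knockout 2. Over the 6 libraries, Pearson's r between the log2 CPM of Dnmt3a and Dnmt3b was 0.96. These points share their libraries, and knockout 3 is lowest and knockout 2 highest for both genes.

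**Figure D2:**
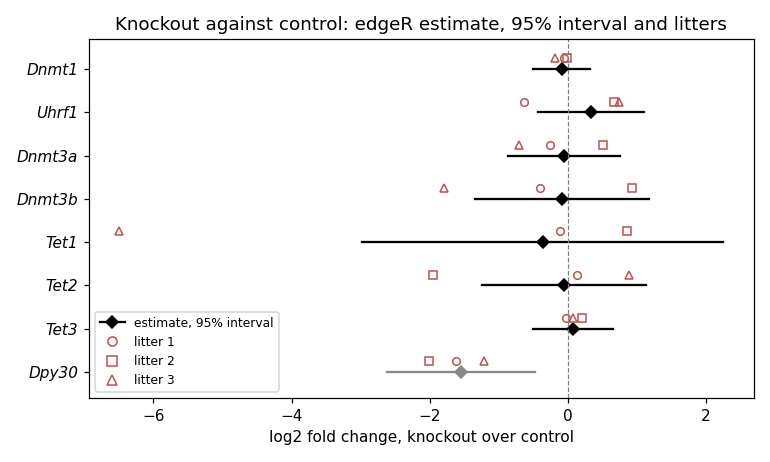
Log2 fold change, knockout over control, for each member and for Dpy30 in grey. Diamonds with bars are edgeR estimates with 95% intervals, and open symbols are the differences of log2 CPM within each litter. The interval includes 0 for all 7 members, and the Tet1 difference in litter 3 is -6.49.

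Of the erasers, Tet1 (ENSMUSG00000047146.17, chromosome 10, 62804570 to 62908996, minus strand) held the most extreme single value. Its counts were 2959, 1526 and 3279 for controls 1, 2 and 3, and 3740, 2680 and 27 for knockouts 1, 2 and 3. In CPM these were 102, 40.8 and 74.4 in controls and 94.1, 73.9 and 0.771 in knockouts. Knockouts 1 and 2 lay within the range of the controls, and knockout 3 was 52.9-fold below the lowest of the other 5 libraries. Knockout 3 also had the fewest genes with any count, 13972. Of 3244 genes with at least 20 CPM in each of the other 5 libraries, 2 were more than 16-fold below all of them in knockout 3, Tet1 and Camk2a. By the same limits, 13 of 3146 genes were that far down in knockout 2 and none in the other 4 libraries. Those limits were chosen after Tet1 was seen. The log2 fold change was -0.37 (SE 1.14, 95% interval -2.98 to 2.25; edgeR adjusted p = 0.977), and 0.23 without knockout 3.

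Tet2 (ENSMUSG00000040943.12, chromosome 3, 133463679 to 133545139, minus strand) had its low value in another library. Controls 1 to 3 had 56.6, 84.5 and 58.1 CPM, and knockouts 1 to 3 had 62.3, 21.8 and 107 CPM. Knockout 2 was 2.59-fold below the lowest of the other 5 libraries, and knockout 3, where Tet1 was lowest, had the most Tet2. The log2 fold change was -0.06 (SE 0.51, 95% interval -1.24 to 1.12; edgeR adjusted p = 0.993). Without knockout 2 it was 0.35, and without knockout 3 it was -0.65.

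Tet3 (ENSMUSG00000034832.15, chromosome 6, 83362373 to 83459084, minus strand) was, with Dnmt1, the member with the narrowest range. It had 131, 100.03 and 156 CPM in controls 1 to 3 and 128, 116 and 164 CPM in knockouts 1 to 3. Its log2 fold change was 0.08 (SE 0.25, 95% interval -0.50 to 0.66; edgeR adjusted p = 0.977), and within litters it differed by -0.03, 0.21 and 0.08. Tet3 and Dnmt1 were also the 2 members whose coefficient of variation was smaller among the knockouts than among the controls, 18.5% against 21.7% for Tet3 and 2.44% against 7.84% for Dnmt1. For the other 5 it was larger among the knockouts, up to 87.3% against 42.4% for Tet1. Over all tested genes the median SD of log2 CPM was also larger among the knockouts, 0.891 against 0.492 among the controls. Among the knockouts, 35.7% of tested genes had a smaller SD than Uhrf1 and 40.8% a smaller one than Dnmt3a. These shares were 60.3% for Tet2, 64.6% for Dnmt3b and 97.5% for Tet1.

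The marker genes that set knockouts 2 and 3 apart moved in the same libraries as some of these members. The 3 members at their lowest in knockout 3, Tet1, Dnmt3b and Dnmt3a, were lowest where the summed HSC markers were lowest, and Dnmt3a and Dnmt3b were highest in knockout 2, where those markers summed to their highest value of 1094 CPM. As many members went the other way, with Uhrf1, Tet2 and Tet3 at their highest in knockout 3, at 150, 107 and 164 CPM. Tet1 was highest in control 1, at 102 CPM. Macrophage markers, 11 of 12 tested, were also at their highest sum in knockout 3, at 1442 CPM against 286 to 774 CPM elsewhere. Lyz2 alone was at 711 CPM in knockout 3. Of those 11, 5 had an unadjusted edgeR p under 0.05, all higher in the knockouts, against 4.26% of all tested genes, and DESeq2 called 3 (C1qb, Csf1r and Lyz2), against 1.02%. The log2 fold change was positive for 9 and negative for 2, Vcam1 and Mrc1. In 4 of the 11 all knockouts lay above all controls, where 6.39% of all tested genes did so. Tet2 was lowest in knockout 2, where Stab2 was at 24.6 CPM against 317 to 534 and Oit3 at 6.01 against 151 to 283 CPM. Both are genes of liver sinusoidal endothelium. Clec4g and Fcgr2b of the same list, low in every library, were not lowest in knockout 2. Clec4g was at 7.14 CPM there, above every control (3.33 to 5.30 CPM). Fcgr2b was at 1.85 CPM there and lowest in control 1, at 1.11 CPM. The endothelial list was drawn up after the values were seen, so its sharing a lowest library with Tet2 is description only. Dnase1l3 was at 0 counts in knockout 2, and no other endothelial marker was at 0 in any library. Tek and Fgd5 of the HSC list are also expressed by endothelial cells, and Mrc1 stands in both the macrophage and the endothelial list. In sorted bulk RNA, fewer cells of a type and less RNA per cell cannot be told apart, and the part of these markers in the members' values was not tested.

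**Figure D3:**
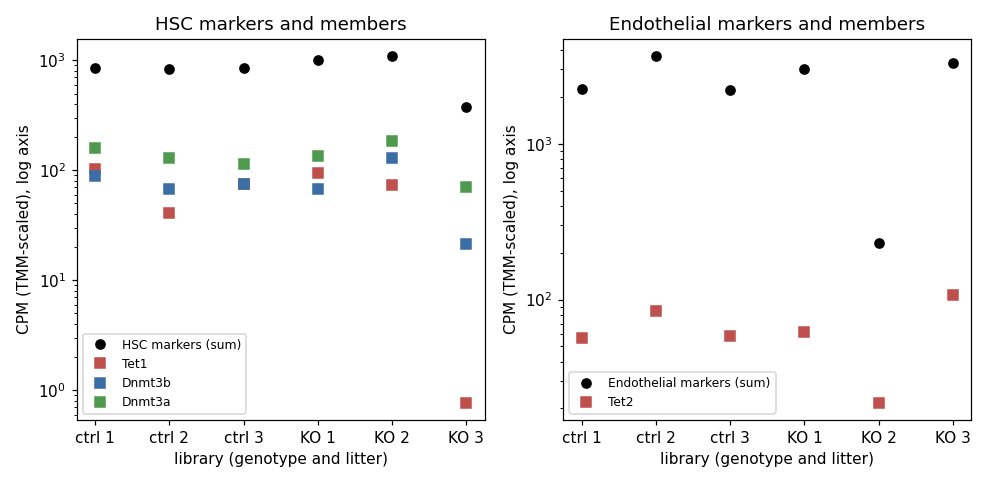
Left, summed CPM of 15 HSC markers with Tet1, Dnmt3b and Dnmt3a, and right, summed CPM of 15 endothelial markers with Tet2, by library (log axes; ctrl, control; KO, knockout; numbers are litters). HSC markers are lowest in knockout 3, at 374 CPM, and endothelial markers in knockout 2, at 231 CPM. Uhrf1, Tet2 and Tet3, which were highest in knockout 3, are not drawn on the left. The endothelial list was drawn up after the values were seen.

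Genes with the most similar profile were ranked by Pearson's r of log2 CPM over the 6 libraries, among 8417 named genes with a mean of at least 5 CPM. For Tet2 they were Cgnl1 (r = 0.998), Stox2 (0.994) and F8 (0.992). F8, which encodes coagulation factor VIII and is made by sinusoidal endothelium, had 42.03, 77.3 and 49.6 CPM in controls and 41.8, 9.45 and 95.4 CPM in knockouts 1 to 3. F8 also stands in the endothelial list drawn up after the values were seen. For Tet1 they were Kdelc2 (0.999), Trim39 (0.997) and Lsg1 (0.997), and for Dnmt3b they were Tmem126b (0.998), Yars2 (0.996) and Hspa4 (0.996). Tmem106b (0.997), Fam92a and Trim6 (both 0.989) were closest to Dnmt3a. An r of at least 0.9 was reached by 575 genes with Tet1, 449 with Dnmt3b, 305 with Dnmt3a and 262 with Tet2. These r rest mostly on knockout 3 for Tet1 and on knockouts 2 and 3 for the other 3 members. Lsg1 reached its r with Tet1 at 25.9 CPM in knockout 3 against 37.7 to 41.7 CPM elsewhere. The steadier members had lower best values, with Prkcsh (0.983) for Uhrf1, Pak2 (0.982) for Tet3 and Cpsf3l (0.977) for Dnmt1.

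Levels were compared between genes per length of exon, as TPM (transcripts per 1000000). In controls, Dnmt1 was highest at 60.6 ± 15.9 TPM, followed by Uhrf1 at 30.1 ± 5.71 and Dnmt3b at 22.5 ± 3.27 TPM. Dnmt3a had 11.98 ± 1.52, Tet3 11.7 ± 3.95, Tet1 6.69 ± 1.90 and Tet2 6.10 ± 2.53 TPM. Control values of neighbours in this order overlapped for Uhrf1 and Dnmt3b, for Dnmt3a and Tet3, and for Tet1 and Tet2. They did not overlap between Dnmt1 and Uhrf1, Dnmt3b and Dnmt3a, or Tet3 and Tet1, but with the longest transcript as length Dnmt3b and Dnmt3a overlapped, at 21.7 to 28.5 and 17.6 to 22.3 TPM. Within each control library, where the scale is shared, Uhrf1 was above Dnmt3b in all 3, at 25.2 against 18.9, 28.8 against 23.3 and 36.4 against 25.3 TPM in controls 1 to 3. The order of Dnmt3a and Tet3, and that of Tet1 and Tet2, differed between control libraries. TPM are used here only for order and shares, since mitochondrial ribosomal RNA took 45.2% to 61.7% of gene counts and sets their scale in each library.

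Within the families, Dnmt1 made up 63.2% ± 3.64 of the summed TPM of the 3 methyltransferases in controls and 65.3% ± 15.98 in knockouts. In knockouts 1 to 3 its share was 64.1%, 49.97% and 81.9%, so knockouts 2 and 3 lay on either side of all controls, which had 59.5% to 66.7%. Dnmt3b made up 22.2%, 34.8% and 9.07% of the same sum in knockouts 1 to 3, against 22.7% to 26.01% in controls. Among the erasers, Tet3 had the largest share in each of the 6 libraries, at 43.9% to 53.04% in controls and 43.96% to 60.5% in knockouts. With the longest transcript as length, Tet2 was marginally above Tet3 in control 2, at 43.4% against 43.2%. Tet1 made up 34.9% and 36.8% of the TET sum in knockouts 1 and 2 and 0.307% in knockout 3, against 19.4% to 37.2% in controls.

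**Figure D4:**
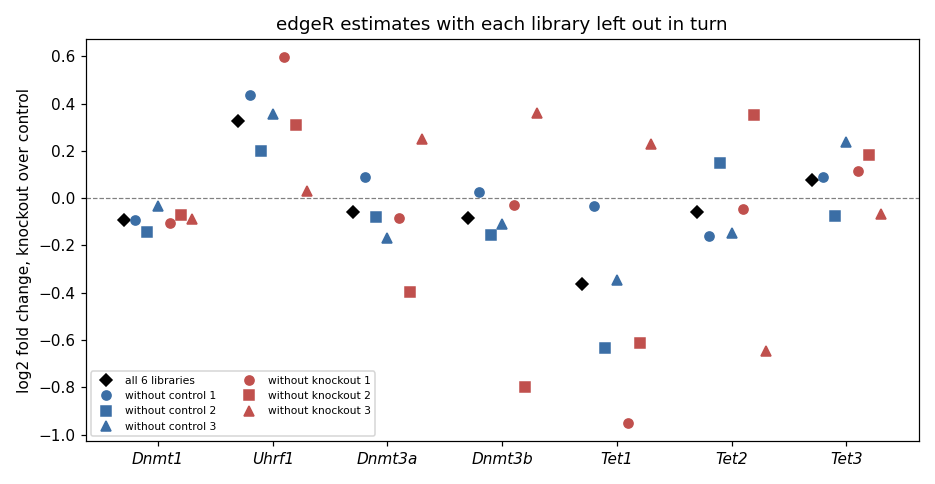
Log2 fold change of each member from edgeR with all 6 libraries (black) and with each library left out in turn (blue, a control left out; red, a knockout left out; shape gives the litter). Dnmt1 stays between -0.14 and -0.03, whereas Dnmt3b runs from -0.80 without knockout 2 to 0.36 without knockout 3.

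Genes that work with the writers were followed as a list of 19, of which 17 were tested, and 0 passed in either direction, with 0 at an unadjusted p under 0.05. Their median log2 fold change was -0.23, against 0.01 over all genes tested. With scaling by library size only it was 0.01, against 0.23 over all genes. In 5 of them all knockouts lay below all controls, among them Cdca7 and Trim28, where 7.74% of all tested genes did so. Cdca7, which with the remodeller Hells opens heterochromatin to methylation, had a control mean of 40.8 ± 10.6 CPM and a knockout mean of 27.7 ± 2.46 CPM (edgeR adjusted p = 0.815). Trim28, a corepressor at imprinted loci and retroelements, had a control mean of 122 ± 12.8 CPM and a knockout mean of 86.8 ± 28.1 CPM (edgeR adjusted p = 0.824). Ehmt1, a histone H3 lysine 9 methyltransferase, was the 1 gene with all knockouts above all controls, as for 6.39% of all genes, with a control mean of 33.5 ± 2.06 CPM and a knockout mean of 46.4 ± 7.13 CPM (edgeR adjusted p = 0.824). Lig1, whose product helps bring Uhrf1 to replication forks, had 213, 151 and 223 CPM in controls 1 to 3 and 132, 177 and 132 CPM in knockouts 1 to 3, and its genotypes overlapped. Dnmt3l and Dppa3, which act with or against the writers in germ cells and early embryos, had 0 counts in all 6 libraries. In 12 of the 17 tested genes the lowest library was knockout 3, a share that was not counted over all tested genes. The median of the list was -0.05 without knockout 3, -0.45 without knockout 2 and -0.37 without control 2.

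Partners of the TET enzymes and the base excision repair genes that act after them numbered 20, with 16 tested and 0 past the adjusted threshold. The uracil glycosylase gene Smug1 had an unadjusted p under 0.05 with a higher knockout mean, where 4.26% of tested genes did. It had 2.76, 1.07 and 4.49 CPM in controls 1 to 3 and 3.50, 20.5 and 13.3 CPM in knockouts 1 to 3, so the genotypes overlapped (log2 fold change 2.16; edgeR adjusted p = 0.758). Idh1, which makes the 2-oxoglutarate that TET enzymes use, had a control mean of 15.3 ± 1.96 CPM and a knockout mean of 27.4 ± 7.52 CPM, with all knockouts above all controls (edgeR adjusted p = 0.775). Mbd4, a glycosylase for mismatched thymine, had 7.49, 12.8 and 10.4 CPM in controls 1 to 3 and 6.14, 2.40 and 6.17 CPM in knockouts 1 to 3, all knockouts below all controls (edgeR adjusted p = 0.844). Gadd45a, a p53 target, was at 3.26 to 6.20 CPM in 5 libraries and at 42.7 CPM in knockout 3. Tdg, which excises the oxidised bases, had a control mean of 5.82 ± 1.92 CPM and a knockout mean of 4.96 ± 3.30 CPM. Idh1 and Mbd4 were the only genes of the 16 whose genotypes did not overlap, 1 in each direction, which is near the 6.39% and 7.74% over all tested genes. The median log2 fold change of the list was 0.11, and it ran from -0.12 without knockout 2 to 0.44 without control 1.

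None of the 9 methyl-CpG readers passed either threshold, and their median log2 fold change was -0.17. With scaling by library size only it was 0.07, against 0.23 over all genes. It was 0.16 without control 1, 0.10 without knockout 2 and -0.10 without knockout 1. Mbd5 had a control mean of 41.7 ± 9.59 CPM and a knockout mean of 59.8 ± 26.0 CPM, Zbtb38 had a control mean of 58.4 ± 5.76 CPM and a knockout mean of 42.1 ± 16.6 CPM, and Mbd6 had a control mean of 43.9 ± 2.66 CPM and a knockout mean of 56.4 ± 29.7 CPM, with overlapping genotypes for all 3. Of 12 tested genes of the methyl donor cycle, which supplies S-adenosylmethionine, 0 passed either threshold. Their median was -0.33, and -0.21 without knockout 3. With scaling by library size only it was -0.12, against 0.23 over all genes. Mthfd2 of the mitochondrial folate cycle had a control mean of 24.7 ± 0.991 CPM and a knockout mean of 13.5 ± 4.81 CPM (edgeR adjusted p = 0.786). Ahcyl1, a relative of Ahcy, had 122, 95.4 and 112 CPM in controls 1 to 3 and 127, 133 and 201 CPM in knockouts 1 to 3, with all knockouts above all controls (edgeR adjusted p = 0.797). Ahcy, which clears the inhibitory product S-adenosylhomocysteine, had a control mean of 14.9 ± 2.68 CPM and a knockout mean of 6.89 ± 4.09 CPM (edgeR adjusted p = 0.799). For Mthfd2 and Ahcy all knockouts lay below all controls, 2 of 12 genes, where 7.74% of all tested genes did so. Mat2a, which makes S-adenosylmethionine, had 303, 269.7 and 252 CPM in controls 1 to 3 and 196, 269 and 85.3 CPM in knockouts 1 to 3, with its lowest level in knockout 3.

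**Figure D5:**
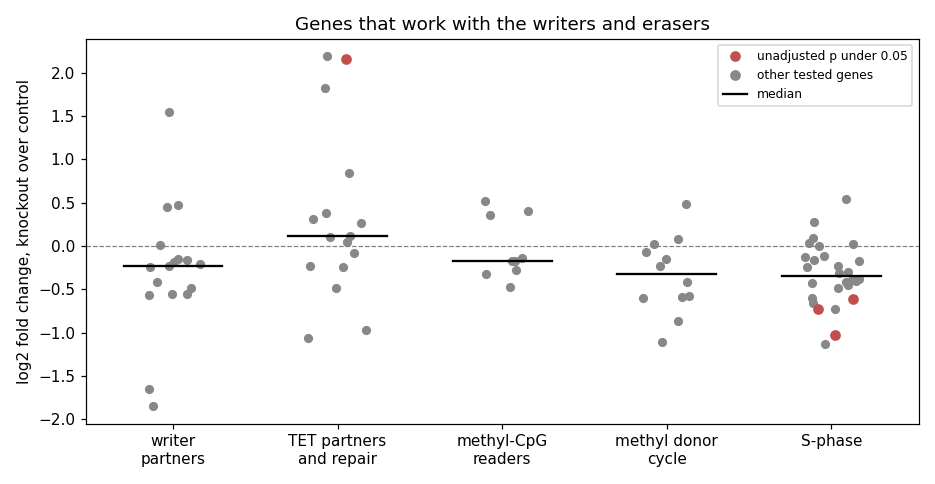
Log2 fold change of every tested gene in 5 lists around the members, with the list median as a bar and genes at an unadjusted edgeR p under 0.05 in red. Those are Smug1 in the TET list and Mcm6, Rrm1 and Cdc6 in the S-phase list, and no gene passed after adjustment.

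Dnmt1 and Uhrf1 are normally most abundant in S phase, so S-phase genes were read beside them. Of 28 tested, 0 passed the adjusted threshold, and 3 had an unadjusted p under 0.05, all lower in the knockouts, where 2.24% of all tested genes did. Mcm6, of the replicative helicase, had 204, 193 and 192 CPM in controls 1 to 3 and 127, 146 and 113 CPM in knockouts 1 to 3 (edgeR adjusted p = 0.709). Rrm1, a subunit of ribonucleotide reductase, had a control mean of 275 ± 20.3 CPM and a knockout mean of 166 ± 46.9 CPM (edgeR adjusted p = 0.721), and Cdc6, a licensing factor, had a control mean of 47.0 ± 13.9 CPM and a knockout mean of 23.1 ± 7.29 CPM (edgeR adjusted p = 0.729). Gins2, of the GINS part of the replicative helicase, had a control mean of 22.3 ± 5.64 CPM and a knockout mean of 10.2 ± 4.89 CPM (edgeR adjusted p = 0.775). The median log2 fold change of the list was -0.35. With scaling by library size only it was -0.16, against 0.23 over all genes. Knockout 3 was lowest for 17 of the 28 genes and in their mean log2 CPM, at 5.22 against 5.59 to 5.93, but not in their summed CPM, which was 3173 there against 2824 to 3906 in the other libraries. How often knockout 3 was lowest over all tested genes was not counted. Knockout 3 had 280 CPM of Dnmt1 and, at 150 CPM, the most Uhrf1 of any library.

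Germline genes that somatic cells keep silent with promoter methylation give a readout on the other side of these enzymes. Of 19 listed, 1 (Ddx4) passed the filter on low counts, and it did not pass the adjusted threshold (log2 fold change 0.35; edgeR adjusted p = 0.977). The 19 genes summed to 1.796, 3.69 and 2.04 CPM in controls 1 to 3 and 1.64, 9.18 and 4.28 CPM in knockouts 1 to 3. Between 12 and 17 of the 19 had 0 counts in each library. Apart from Ddx4, the highest values, picked out after they were seen, were Tdrd1 at 4.33 CPM in knockout 2 and Tex19.1 at 1.46 CPM in knockout 3, each at or near 0 elsewhere.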

How the data were processed

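RNA from sorted fetal liver HSCs was sequenced in 6 libraries. The authors deposited raw whole-number read counts per gene symbol, 1 list per library. The submitters' processing notes name mm10, TopHat2, Picard 1.126 and HTSeq 0.6.0 without roles. The annotation and the strand setting are not given in the sources used here. Reads given to no gene, 41.0% to 51.0% of all reads, stand as 5 closing tallies and were left out. Without strand, antisense reads cannot be told apart; annotated overlaps cover at most 0.799% of a member's exon bases (GENCODE M21, GRCm38, which matched 91.6% of symbols).

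Genes were kept with filterByExpr, scaled by TMM and tested with edgeR's quasi-likelihood F test (edgeR 4.0.16, R 4.3.3), genotype only, with Benjamini-Hochberg adjustment over 13646 genes and a threshold of 0.05. Each SE was derived from the log2 fold change and its F statistic in the same fit. The 95% intervals built on it are symmetric around the estimate and so approximate. Log2 CPM used a prior count of 2. The common biological coefficient of variation was 0.817, which limits precision. On simulated data edgeR recovered nearly all changed genes at a low spread and none at a spread near that common value. At the wider spread DESeq2 recovered some but made more false calls than its threshold allows. A count of 0 therefore does not show that genes were equal. Recovery of changes as small as those estimated for the members was not tested. Every simulated gene had the same spread. The members' own coefficients ran from 0.229 for Dnmt1 to 0.908 for Tet1, so the simulation does not give the power for each member. DESeq2 1.42.0, limma-voom (limma 3.58.1), other scalings, other filters, a litter block and each library left out were alternatives. TPM use the union of exons. The labels pair libraries by litter; the correlation of litter mates' deviations from genotype means was -0.02, -0.08 and 0.00 in litters 1 to 3.

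The members and lists were chosen with earlier results of these data known. Named beside the members are Dpy30, up to 4 genes per pathway list in order of edgeR p (1 of them is not reported here), marker genes, and the most similar profiles; Tdg, Dnmt3l, Dppa3, Oit3, Tdrd1 and Tex19.1 were named after their values were seen.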

Additional observations from a re-analysis of the deposited data

How the results depend on the processing

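All 7 members stayed short of the threshold under all 14 alternatives, with the lowest adjusted p, 0.412, for Uhrf1 without knockout 1. The sign of the log2 fold change reversed in 14 of 98 values, and only Uhrf1 had no reversal. With scaling by library size only, which moves the median of all genes to 0.23, the reversed values were 0.12 for Dnmt1, 0.18 for Dnmt3a, 0.13 for Dnmt3b and 0.13 for Tet2. With upper-quartile scaling, which moves that median to -0.10, Tet3 was at -0.0565. With limma-voom, which moves it to -0.14, Tet1 was at -1.82 and Dnmt3b at -0.40, against -0.37 and -0.09 in the main edgeR test. With a library left out, the ranges were -0.14 to -0.03 for Dnmt1, 0.03 to 0.60 for Uhrf1, -0.40 to 0.25 for Dnmt3a, -0.80 to 0.36 for Dnmt3b, -0.95 to 0.23 for Tet1, -0.65 to 0.35 for Tet2 and -0.0746 to 0.24 for Tet3. Reversals came without knockout 3 (Dnmt3a 0.25, Dnmt3b 0.36, Tet1 0.23, Tet3 -0.0668), without knockout 2 (Tet2 0.35), without control 1 (Dnmt3a 0.09, Dnmt3b 0.03) and without control 2 (Tet2 0.15, Tet3 -0.0746). The cause was not tested.

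With litter as a block, the pairing given by the labels, 0 genes passed and 619 had an unadjusted p under 0.05. The block changed no other call, and gave -0.09 for Dnmt1, 0.26 for Uhrf1, -0.15 for Dnmt3a, -0.42 for Dnmt3b, -1.15 for Tet1, -0.27 for Tet2 and 0.08 for Tet3.

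Over all genes, edgeR called 0, with 888 at an unadjusted p under 0.05. It called 1, higher in the knockouts, without a filter on low counts (1457 unadjusted) and 1, also higher, with at least 10 counts in every sample. DESeq2 called 139, of which 104 were higher and 35 lower. With a library left out, 0 to 0 genes passed and 593 to 1796 had an unadjusted p under 0.05, with 1796 without knockout 1, 1470 without knockout 2 and 617 to 624 without control 2 or 3. With the longest transcript as length, the order of Tet1 and Tet2 in controls turned to 6.91 and 10.7 TPM, and Dnmt3a was at 19.7 TPM. With a prior count of 0.5 each member kept its number of litters in each direction.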
